A study of Mus musculus with 12 samples.

Results

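Immediate early and dissociation stress genes are transcribed within minutes of a stimulus, and 34 of them were followed here among 41388 genes in 12 mouse brain RNA-seq libraries. The 34 are a list of gene symbols with no measured threshold, drawn up with earlier results of these data known. All were found by symbol, and all were tested in every comparison. KO denotes mice positive for Aldh1l1-CreERT2, a Cre that astrocytes make and tamoxifen switches on. WT denotes Cre-negative mice. Both labels carried the floxed allele written Bmal fl/fl on a C57BL\6 background, and both received 2 mg of tamoxifen a day for 5 days by gavage at 2 months of age. All mice were kept on 12 h of light and 12 h of dark. Brains were taken at 20 months, digested with collagenase, and sorted on magnetic beads for the astrocyte surface antigen ACSA-2. Bound cells are called astrocytes and unbound cells flowthrough. There were 4 KO and 4 WT astrocyte libraries and 2 KO and 2 WT flowthrough libraries, which came from 4 of the same mice. Libraries are named by mouse number.

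Immediate early genes need no new protein for their induction. Kinase cascades act on factors already bound at their promoters, chiefly SRF with its partners at CArG boxes and CREB at cyclic AMP response elements (CRE). Their products are mostly transcription factors that start a second wave of genes, together with phosphatases and RNA-decay factors that shut the response down. In the brain they report firing in neurons, and in freshly isolated cells, microglia above all, they are known to be induced by enzymatic digestion. Every library here was digested and sorted, and no undigested tissue was analysed. RNA made during handling and RNA present in the living brain therefore cannot be told apart in any value here. In bulk libraries, fewer cells of a type and less RNA per cell cannot be told apart either.

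Depth was 38.7 to 51.6 M counts a library. Mitochondrially encoded transcripts made up 12.6% to 21.4% of an astrocyte library and 4.66% to 12.7% of a flowthrough library. Arntl, the gene for BMAL1, did not check the labels. Its counts were 401 to 645 in the 4 libraries of KO astrocytes against 239 to 374 in the 4 of WT astrocytes, and 261 and 284 in KO flowthrough against 217 and 292 in WT flowthrough. It was not lower in KO, and which exons the deletion removes is not stated, so KO and WT mean libraries labelled so. KO astrocytes 73 and WT astrocytes 78 had 2411 and 1133 counts of Xist, the RNA of the inactive X chromosome, against 0 to 10 in each of the other libraries, so each astrocyte group held 1 female-type library and the flowthrough none. Markers matched the sort in that all 12 astrocyte markers rose in astrocytes over flowthrough (summed level 7842 to 13636 against 2203 to 5049 CPM). However, all 10 neuron markers rose too (1972 to 5820 against 617 to 2676 CPM), as did 5 of 10 oligodendrocyte markers. Of all tested genes, 24.8% were called higher in astrocytes.

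Promoter sequence was read for the members because most of them moved together between the fractions. RefSeq (GRCm38.p6) gave the 250 bases upstream of the start of 30 of the 34. Egr1, Egr3, Arc and Ier2 are named only. These 6 span the response: Fos and Nr4a1 (transcription factors), Dusp1 and Dusp5 (MAP kinase phosphatases), Btg2 (a growth arrest gene) and Zfp36 (an RNA-decay factor). Dusp5 stands beside the others since it was higher in astrocytes, whereas the other 5 were lower. They lie at chr12:85473640-85473889 (Fos, plus strand), chr15:101266596-101266845 (Nr4a1, plus), chr17:26508473-26508722 (Dusp1, minus), chr1:134079156-134079405 (Btg2, minus), chr7:28379229-28379478 (Zfp36, minus) and chr19:53528895-53529144 (Dusp5, plus). Each is written 5′ to 3′ on the strand of its gene, ending at the base before the RefSeq start. Capitals mark the full CRE TGACGTCA, the CRE core TGACG on either strand, the E-box CACGTG and the CArG box.
Fos: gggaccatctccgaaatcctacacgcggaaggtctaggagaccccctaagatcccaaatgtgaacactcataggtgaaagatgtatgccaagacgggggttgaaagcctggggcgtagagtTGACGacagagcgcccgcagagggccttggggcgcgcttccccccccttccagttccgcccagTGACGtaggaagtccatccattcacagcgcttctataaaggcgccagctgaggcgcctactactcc
Nr4a1: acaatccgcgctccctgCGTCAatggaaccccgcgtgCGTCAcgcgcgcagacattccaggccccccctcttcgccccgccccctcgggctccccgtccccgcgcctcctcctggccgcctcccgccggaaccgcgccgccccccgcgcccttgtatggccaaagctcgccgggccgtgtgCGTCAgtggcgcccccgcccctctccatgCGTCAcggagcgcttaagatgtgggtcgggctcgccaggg
Dusp1: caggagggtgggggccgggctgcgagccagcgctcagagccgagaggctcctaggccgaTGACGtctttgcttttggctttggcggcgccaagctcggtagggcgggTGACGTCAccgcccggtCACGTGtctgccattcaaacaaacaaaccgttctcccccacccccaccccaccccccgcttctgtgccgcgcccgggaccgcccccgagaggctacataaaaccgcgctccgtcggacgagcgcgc
Btg2: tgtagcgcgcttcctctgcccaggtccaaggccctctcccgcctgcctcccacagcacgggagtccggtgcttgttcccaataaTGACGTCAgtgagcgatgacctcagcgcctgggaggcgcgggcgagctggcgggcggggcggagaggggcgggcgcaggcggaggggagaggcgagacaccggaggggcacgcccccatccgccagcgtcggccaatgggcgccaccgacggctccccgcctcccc
Zfp36: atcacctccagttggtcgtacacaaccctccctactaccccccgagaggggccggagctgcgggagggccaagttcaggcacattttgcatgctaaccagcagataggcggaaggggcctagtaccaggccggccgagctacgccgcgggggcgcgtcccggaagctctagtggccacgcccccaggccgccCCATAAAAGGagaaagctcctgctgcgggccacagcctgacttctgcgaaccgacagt
Dusp5: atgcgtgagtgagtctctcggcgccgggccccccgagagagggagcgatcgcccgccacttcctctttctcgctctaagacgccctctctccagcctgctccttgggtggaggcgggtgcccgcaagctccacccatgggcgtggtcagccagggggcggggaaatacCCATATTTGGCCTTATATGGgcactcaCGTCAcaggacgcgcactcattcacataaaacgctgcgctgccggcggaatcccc

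The CRE core TGACG, on either strand, was in 16 of 30 member promoters (53.3%), against 17.7% of all 32817 RefSeq promoters of the same length. Fos held it 2 times and Nr4a1 4 times. Egr4 and Nr4a2, which were higher in astrocytes, also held it 2 and 4 times. The full CRE was in 3 (10%), namely Dusp1, Btg2 and Maff, against 1.55% of all, and each full CRE holds the core on both strands. CArG boxes were in 2 (6.67%), Zfp36 with 1 and Dusp5 with 2 in tandem, against 1.47% of all. The E-box CACGTG, to which CLOCK and BMAL1 bind, was in 8 (26.7%), namely Maff, Egr2, Klf4, Klf6, Dusp1, Dusp2, Gadd45b and Gadd45g, against 6.02% of all. The AP-1 motif TGANTCA was in none of the 30, against 6.75% of all. Longer variants of it, such as TGACATCA in the Jun promoter, were not searched for. Fosl2, Jun, Jund, Dusp6, Ier3, Ier5, Socs3 and Rhob held none of the motifs searched for, whereas each promoter printed above held a marked one. The member promoters were also richer in G and C, with a median of 65.2% against 52.4%. These are matches of letters in a short window and say nothing of binding.

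The comparison of the fractions asks how the captured astrocytes differ from the rest of the brain cells of the same kind of mice. Most immediate early genes were lower in astrocytes. Of the 34 members, 24 fell and 4 rose in astrocytes against flowthrough (edgeR quasi-likelihood test over all 12 libraries, adjusted p under 0.05). Over all 20997 tested genes, 49.2% passed, 24.4% lower and 24.8% higher. At an unadjusted p under 0.05 there were 30 members, against 55.5% of all genes. The median log2 fold change of the members was -1.58, and over all genes it was 0.0040. The astrocyte and flowthrough libraries did not overlap for 19 members that were lower and for 1, Egr4, that was higher, against 17% and 12.2% of all genes (29.2% in either direction). Paired by mouse, 25 members were lower in astrocytes in all 4 mice and 5 were higher in all 4, against 32.7% and 31% of all genes. Without the female-type libraries KO 73 and WT 78, 24 members fell and 4 rose, with a median of -1.65. Of the 20726 genes tested there, 5784 fell and 5374 rose. In that refit 2 member calls changed: Fosl2 was lost (edgeR adjusted p = 0.0514) and Maff was gained (-1.38, edgeR adjusted p = 0.0133).

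**Figure D1:**
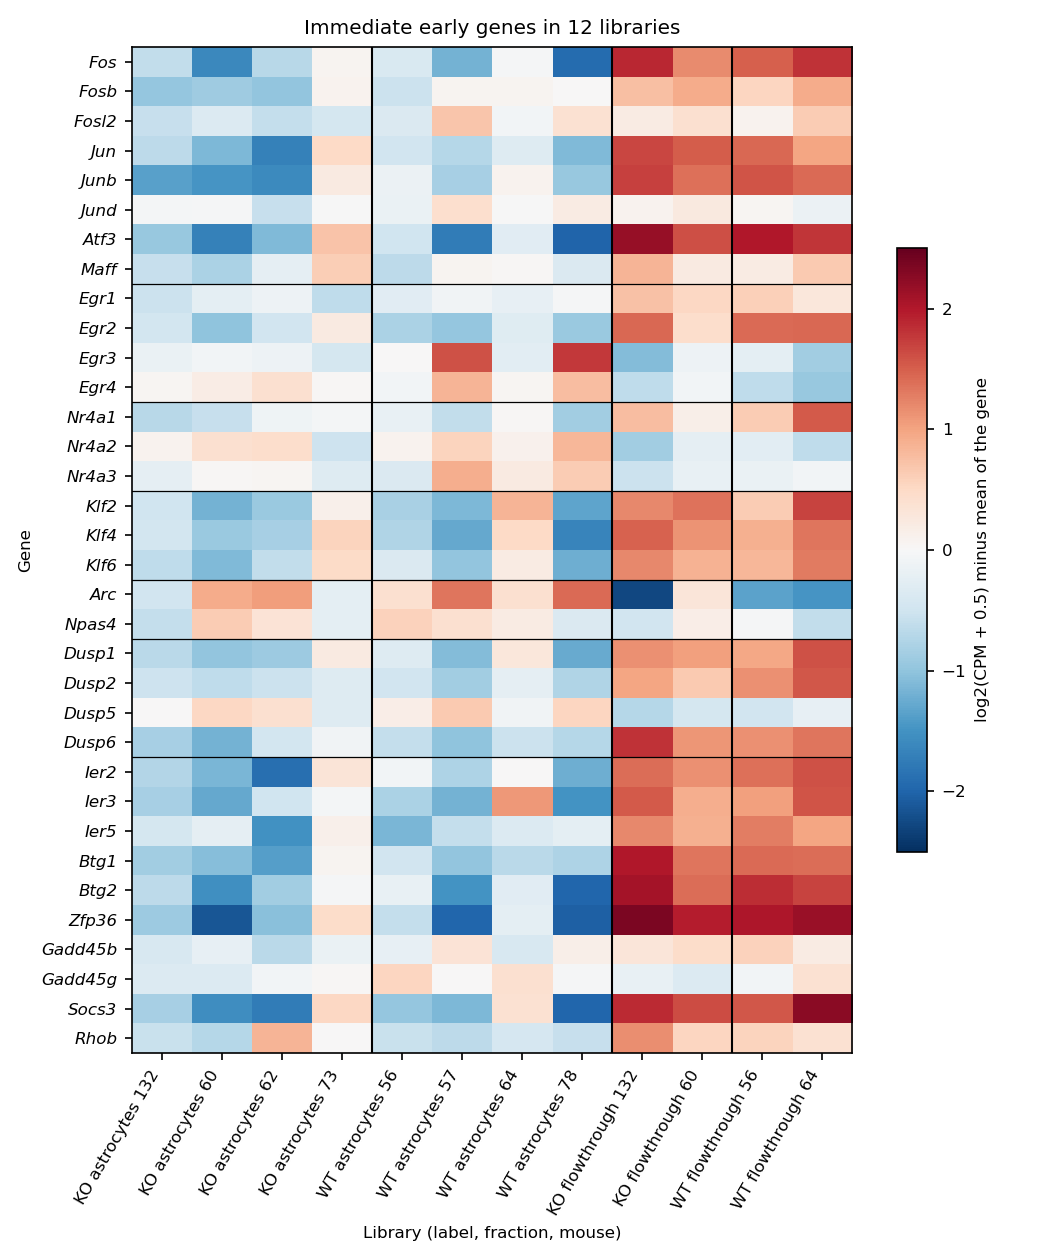
Level of each of the 34 genes in each library, as log2(CPM + 0.5) minus the mean of that gene over the 12 libraries (red above, blue below its mean). Columns run from KO astrocytes over WT astrocytes and KO flowthrough to WT flowthrough, and thin lines separate the roles. Most genes are red in the 4 flowthrough columns, and Egr3, Egr4, Nr4a2, Arc and Dusp5 are mostly blue there.

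AP-1 factors, the dimers of FOS, JUN and ATF proteins, fell in 6 of 8 cases and rose in none, against 24.4% and 24.8% of all genes. Fos, the classical immediate early gene, had a lowest, median and highest level of 28.2, 69.0 and 115 CPM in the 8 astrocyte libraries, against 404 and 246 CPM in KO flowthrough and 306 and 379 CPM in WT flowthrough. Every flowthrough library lay above every astrocyte library. Fos fell by 2.27 ± 0.34 on the log2 scale (estimate ± SE, edgeR adjusted p = 0.00032), which is 4.83-fold. Jun, its main partner, had 7.87, 16.2 and 37.3 CPM as lowest, median and highest level in astrocytes, against 85.1 and 75.7 CPM in KO flowthrough and 71.7 and 52.5 CPM in WT flowthrough. These ranges did not overlap either, and Jun fell by 2.00 ± 0.33 (edgeR adjusted p = 0.0005). Jun shares 232 bases with the opposite-strand gene Junos, which had 574 counts in all libraries together, and the strand setting of the counting is not stated.

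Atf3, a stress-induced repressor of the same class, had a median of 7.45 CPM in astrocytes (range 3.53 to 26.0) and 59.7 CPM in flowthrough (49.0 to 72.4), a fall of 2.67 ± 0.45 (edgeR adjusted p = 0.00063). Junb fell by 2.26 ± 0.37 and Fosb by 1.21 ± 0.23. Both were without overlap between the fractions. Fosl2 fell by 0.51 ± 0.19 with an edgeR adjusted p of 0.0464, and its libraries did overlap (7.89 to 20.0 CPM in astrocytes, 13.1 to 19.2 in flowthrough). The Fosl2 call was lost under 12 of the 24 alternatives tried. Jund, the constitutively expressed JUN protein, did not pass (-0.08 ± 0.16, edgeR adjusted p = 0.698; 10.3 ± 2.1 CPM in astrocytes, SD, n = 8, and 10.8 ± 1.3 CPM in flowthrough, n = 4). Maff, a small MAF partner, did not pass (-1.05 ± 0.46, edgeR adjusted p = 0.0779), but with the mouse as a block in the 4 paired mice it did (-1.72 ± 0.38, edgeR adjusted p = 0.00525).

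The EGR zinc-finger factors split. Egr1 ranged from 21.0 over a median of 28.0 to 32.0 CPM in astrocytes, against 54.9 and 47.4 CPM in KO flowthrough and 49.9 and 39.7 CPM in WT flowthrough. The fractions did not overlap, and Egr1 varied least among the 8 astrocyte libraries of all members, with a highest level 1.53 times the lowest. It fell by 0.81 ± 0.12 (edgeR adjusted p = 0.00029). Egr2, also known for its role in myelinating Schwann cells, fell more, by 1.86 ± 0.25 (edgeR adjusted p = 0.00015; 5.85 ± 2.1 CPM in astrocytes, SD, n = 8, and 21.2 ± 6.2 CPM in flowthrough, n = 4). Egr4 had 0.564, 0.707 and 1.49 CPM as lowest, median and highest level in astrocytes, against 0.216 and 0.552 CPM in KO flowthrough and 0.217 and 0.0791 CPM in WT flowthrough. These are 27 to 59 reads a library in astrocytes and 4 to 29 in flowthrough. Every astrocyte library was above every flowthrough library, and Egr4 rose by 1.86 ± 0.45 (edgeR adjusted p = 0.0049). Egr3 did not pass (1.38 ± 0.56, edgeR adjusted p = 0.0603) and ranged from 0.655 to 4.78 CPM in astrocytes and from 0.234 to 0.933 CPM in flowthrough.

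NR4A orphan nuclear receptors split as well. Nr4a1 fell by 1.19 ± 0.22 (edgeR adjusted p = 0.0011), with a range of 28.6 to 53.7 CPM in astrocytes and 58.9 to 154 CPM in flowthrough. Nr4a2, which dopamine neurons need, rose by 0.81 ± 0.24 (edgeR adjusted p = 0.0164), with a range of 5.31 to 14.3 CPM in astrocytes and 4.07 to 6.59 CPM in flowthrough. In Nr4a2 only KO astrocytes 73 lay within the flowthrough range. Without KO flowthrough 132 the call was lost (0.66, edgeR adjusted p = 0.0878), and likewise without WT flowthrough 64 (0.70, edgeR adjusted p = 0.0825). Nr4a3 did not pass (0.48 ± 0.27, edgeR adjusted p = 0.163). All 3 KLF factors fell, against 24.4% of all genes. Klf2, a flow-responsive endothelial factor, fell by 1.77 ± 0.42, Klf4 by 1.68 ± 0.39 and Klf6 by 1.48 ± 0.31. Klf2 overlapped through 1 library, WT astrocytes 64, at 15.4 CPM against 13.3 CPM in WT flowthrough 56. All 10 endothelial markers were lower in astrocytes too (summed level 332 to 876 against 769 to 1385 CPM, none at 0), against 24.4% of all genes. The part of endothelial cells in the Klf2 result was not tested.

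Arc, a synaptic protein whose RNA moves into dendrites, is among the genes best known from neuronal firing. It had 34.4, 91.7, 99.1 and 40.4 CPM in KO astrocytes 132, 60, 62 and 73 and 63.4, 122, 63.5 and 129 CPM in WT astrocytes 56, 57, 64 and 78. In flowthrough it had 9.46 and 59.0 CPM in KO mice 132 and 60 and 18.7 and 17.0 CPM in WT mice 56 and 64. KO flowthrough 60 was the only flowthrough library above the lowest astrocyte library. Arc rose in astrocytes by 1.68 ± 0.48 (edgeR adjusted p = 0.0131), and without WT flowthrough 64 the call was lost (1.62, edgeR adjusted p = 0.0577). Of the flowthrough libraries, KO 60 had both the highest Arc level and the highest summed neuron markers. The neuron sums were 915 and 2676 CPM in KO flowthrough 132 and 60, and 1054 and 617 CPM in WT flowthrough 56 and 64. The orders otherwise differed: Arc was lowest in KO flowthrough 132, and the neuron sum in WT flowthrough 64. Among astrocytes, Arc and the neuron sum were both highest in WT 57 and WT 78, with neuron sums of 5820 and 5564 CPM. The neuron sum was lowest in KO 73, at 1972 CPM, and Arc there was 40.4 CPM. Arc was lowest in KO 132, where the neuron sum was 3695 CPM, against 2875 CPM in WT 64. Npas4, a neuron-restricted factor induced by calcium entry, was near the limit of detection with 6 to 44 reads a library and did not pass (0.83 ± 0.62, edgeR adjusted p = 0.287). Of 10 later neuronal activity genes, 8 rose in astrocytes and none fell (median log2 fold change 1.37), against 24.8% and 24.4% of all genes. Among them Bdnf, a neurotrophin, rose by 1.98 ± 0.44 (edgeR adjusted p = 0.0032), Nrn1 by 1.29 ± 0.28, Gpr3 by 2.70 ± 0.42 and Rasl11a by 1.83 ± 0.21. All 10 neuron markers rose in the same comparison with a median of 1.61 and none at 0, and their part in the Arc and Egr4 results was not tested.

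**Figure D2:**
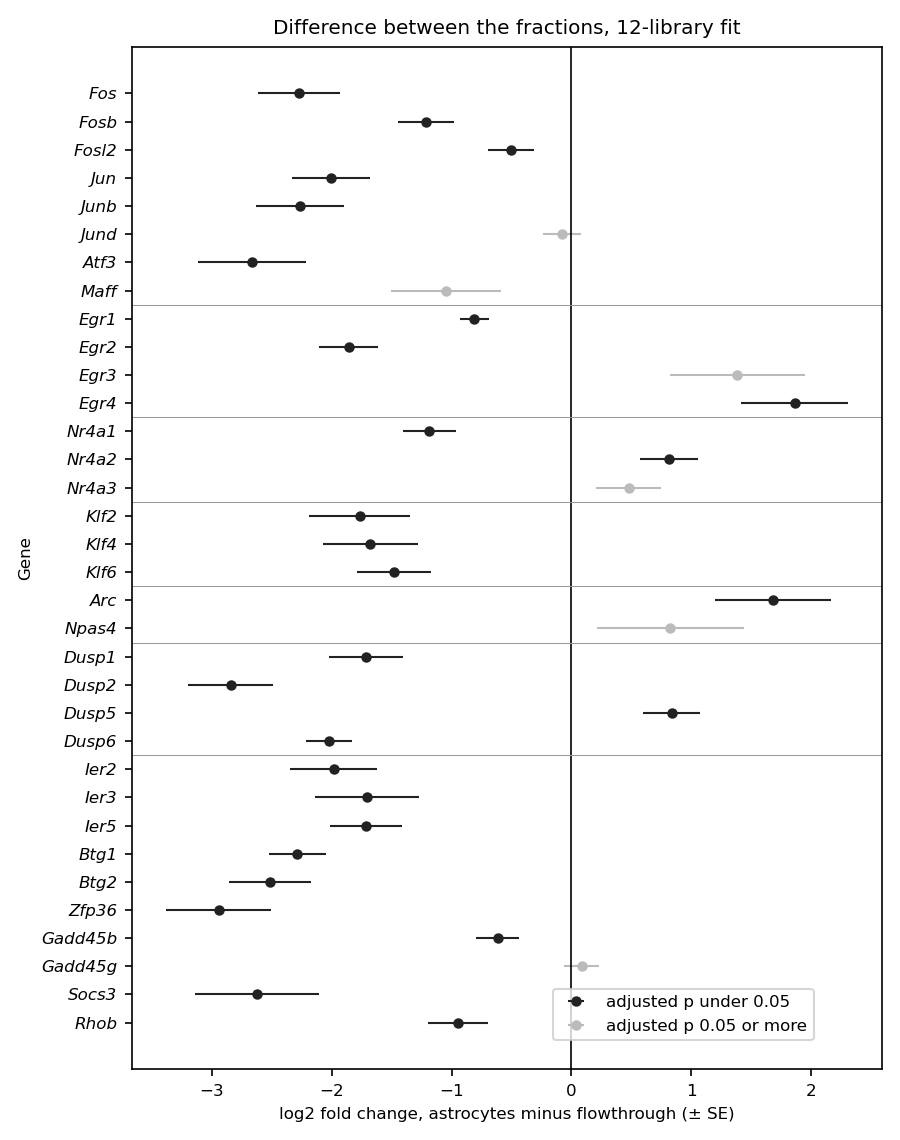
Log2 fold change, astrocytes minus flowthrough, of each of the 34 genes with its standard error in the fit of 12 libraries; black points passed the test and grey points did not. Zfp36 has the lowest value (-2.94) and Egr4 the highest (1.86).

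DUSP phosphatases, which switch MAP kinases off, fell in 3 cases of 4, against 24.4% of all genes. Dusp6, specific for ERK, had the smallest p of all members. It had a lowest, median and highest level of 41.8, 60.7 and 89.5 CPM in astrocytes, against 338 and 206 CPM in KO flowthrough and 212 and 242 CPM in WT flowthrough. The lowest flowthrough library stood above the highest astrocyte library, and Dusp6 fell by 2.02 ± 0.19 (edgeR adjusted p = 2.3e-05). Dusp1 fell by 1.71 ± 0.31. Dusp2, an immune-cell phosphatase, fell by 2.84 ± 0.36 (edgeR adjusted p = 0.0001), but it rests on 3 to 19 reads a library in astrocytes and 63 to 135 in flowthrough. Dusp5, a nuclear ERK phosphatase, rose by 0.84 ± 0.24 (edgeR adjusted p = 0.0123), with 2.73 to 5.86 CPM in astrocytes and 1.96 to 2.99 CPM in flowthrough. Without KO flowthrough 132 or WT flowthrough 56 its adjusted p was 0.0619 and 0.0532.

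Feedback and growth arrest genes fell in 9 of 10 cases, against 24.4% of all genes. Zfp36, which binds AU-rich elements and speeds the decay of cytokine mRNA, had the largest change of the members. It had 27.8, 63.0 and 171 CPM as lowest, median and highest level in astrocytes, against 641 and 483 CPM in KO flowthrough and 502 and 556 CPM in WT flowthrough. Every flowthrough library was above every astrocyte library by a wide margin, and Zfp36 fell by 2.94 ± 0.44 (edgeR adjusted p = 0.0003), which is 7.69-fold. Btg2, an anti-proliferative gene, had 33.5, 79.0 and 130 CPM as lowest, median and highest level in astrocytes, against 566 and 355 CPM in KO flowthrough and 483 and 434 CPM in WT flowthrough. The ranges stood apart and Btg2 fell by 2.52 ± 0.34 (edgeR adjusted p = 0.00017). Its relative Btg1 fell by 2.29 ± 0.24 (edgeR adjusted p = 3.4e-05), with 32.3 ± 10.9 CPM in astrocytes (SD, n = 8) and 158 ± 37.6 CPM in flowthrough (n = 4).

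Socs3, the inhibitor of cytokine receptor signalling, fell by 2.62 ± 0.52, Ier2 by 1.98 ± 0.37, Ier5 by 1.71 ± 0.30 and Ier3 by 1.71 ± 0.43. Rhob, a stress-induced small GTPase, fell by 0.94 ± 0.25 (edgeR adjusted p = 0.0090), but not without KO flowthrough 132 (adjusted p = 0.0577). Gadd45b, a stress sensor upstream of p38, fell by 0.61 ± 0.18 (edgeR adjusted p = 0.0147), but not without WT flowthrough 56 (adjusted p = 0.0746). Gadd45g, its relative, did not pass (0.09 ± 0.15, edgeR adjusted p = 0.647). It had 33.8 ± 7.8 CPM in astrocytes (SD, n = 8) and 31.8 ± 7.2 CPM in flowthrough (n = 4).

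**Figure D3:**
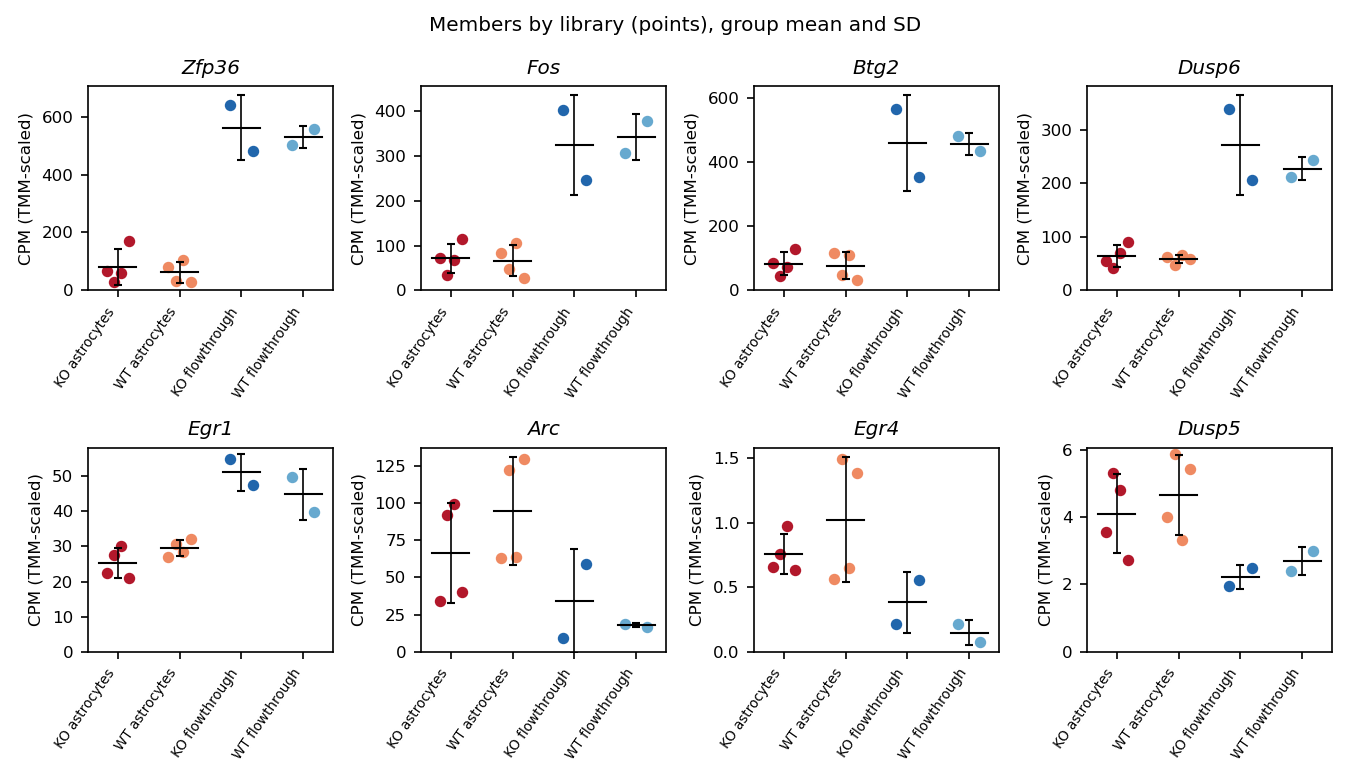
TMM-scaled CPM of 8 members in each library (points), with the mean and SD of each group, on axes that start at 0. In Zfp36, Fos, Btg2, Dusp6 and Egr1 both flowthrough groups lie above both astrocyte groups; in Egr4 the order is the other way, and in Arc and Dusp5 single libraries overlap.

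Per length, Zfp36, Fos and Btg2 were the 3 highest members in both fractions. By RPKM, Zfp36 led in both, with 40.8 ± 31.8 in astrocytes (SD, n = 8) and 328 ± 49.5 in flowthrough (n = 4). Fos followed in astrocytes with 29.6 ± 15.9, then Btg2 with 29.4 ± 15.8, Gadd45g with 28.2 ± 8.4 and Arc with 24.7 ± 9.2. These 5 do not differ beyond their spread in astrocytes. In flowthrough Btg2 followed with 180 ± 38.0, then Fos with 153 ± 37.0 and Dusp6 with 96.1 ± 24.9. Btg2 and Fos do not differ beyond their spread there, while the lowest Zfp36 library, at 274 RPKM, was above the highest Btg2 library, at 224. Arc had rank 5 in astrocytes and rank 19 in flowthrough, where it had 8.95 ± 7.3 RPKM. At the bottom, Dusp2 was last in astrocytes (0.122 ± 0.063) and Npas4 last in flowthrough (0.105 ± 0.066).

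Both labels showed the fall. In KO mice 21 members were lower and none higher in astrocytes, against 14.3% and 9% of all genes (23.3% in either direction). In WT mice 20 were lower and 2, Egr4 and Arc, were higher, against 18.5% and 19.4% of all genes (37.9% in either direction). The members lower in both labels were 17. The share of all genes lower in both labels was not counted, and it cannot exceed the 14.3% lower in KO mice. Whether the fraction difference itself differed between the labels was tested as an interaction, and no gene of 20997 passed (0%; 3.94% at an unadjusted p under 0.05), so no member did, and no member had an unadjusted p under 0.05. DESeq2 called 8 genes for the interaction, none of them members. The members' interaction median was -0.09. The smallest p among the members belonged to Egr4 (-1.78 ± 0.84), Egr1 (-0.41 ± 0.25), Fosl2 (-0.65 ± 0.39) and Jund (-0.52 ± 0.31), each with an edgeR adjusted p of 0.934. In WT mice Egr4 was higher in astrocytes by 2.75 ± 0.67 (edgeR adjusted p = 0.0078), and in KO mice it did not pass (0.97 ± 0.59, edgeR adjusted p = 0.254).

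That fit of 12 libraries ignores that 4 mice gave both fractions, and the values for the interaction differed in those mice alone. Within each mouse, the median log2 ratio of astrocytes over flowthrough over the 34 members was -1.85 and -1.97 in KO mice 132 and 60, against -1.42 and -0.92 in WT mice 56 and 64. With the mouse as a block in these 8 libraries, the interaction median of the members was -0.68, with 26 of 34 below 0, and again no member and no gene passed. At an unadjusted p under 0.05 there were 17 members, all with a negative estimate, against 7.73% of the 20595 genes (6.42% with a negative estimate). The members were measured in the same libraries, so they are not independent, and the count of 17 is not a test. Junb, with the smallest p, was -1.65 ± 0.27 (edgeR adjusted p = 0.476), followed by Btg2 (-0.85 ± 0.19, edgeR adjusted p = 0.551) and Klf6 (-0.78 ± 0.18, edgeR adjusted p = 0.555). Without the block the same 8 libraries gave a median of -0.73 and 5 members at an unadjusted p under 0.05, against 4.12% of all genes. These 8 libraries hold 2 mice a label and leave out KO astrocytes 62 and 73 and WT astrocytes 57 and 78, and the blocked fit has 2 residual degrees of freedom.

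Other genes of the same pathway, from lists chosen with earlier results of these data known, moved as follows in astrocytes against flowthrough. Over all tested genes, 24.4% fell and 24.8% rose. Of 36 other rapid response genes, 23 fell and 3 rose (median -1.05). Genes of each list are named here by the smallest p, and these were not always the genes with the largest change. Rgs2, a brake on G-protein signalling, fell by 2.42 ± 0.17, Csrnp1 by 1.73 ± 0.13 and Irf1, an interferon response factor, by 1.81 ± 0.17. Spry2, an inhibitor of growth factor signalling, rose by 1.43 ± 0.11. Of 24 upstream kinases and factors, 10 fell and 5 rose (median -0.02). Rps6ka1, an ERK-activated kinase, fell by 2.83 ± 0.23, Nfkb1 by 2.20 ± 0.29, Rela by 0.98 ± 0.11 and Mapk14, the p38 kinase, by 0.99 ± 0.13. Of 12 rapid cytokine and chemokine genes, 10 fell and none rose (median -3.60), among them Il1a by 3.80 ± 0.49, Ccl4 by 3.92 ± 0.55, Tnfsf9 by 3.38 ± 0.49 and Il6 by 4.22 ± 0.64. Il6 was at 0 in KO astrocytes 60.

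Heat shock and proteotoxic stress genes, the other class known from dissociation, differed less. Of 16, 6 fell and none rose in astrocytes (median -0.22), against 24.4% and 24.8% of all genes. Hmox1, the haem-degrading enzyme, fell by 1.28 ± 0.14 (edgeR adjusted p = 4.5e-05). Hspa5, the chaperone of the endoplasmic reticulum, fell by 1.005 ± 0.30. Hspa1a fell by 1.95 ± 0.50 and Hspa1b by 1.66 ± 0.45. These inducible HSP70 genes are near-identical copies, so the split of reads between them is uncertain, and their levels were low (0.663 to 4.94 CPM in astrocytes and 7.03 to 9.63 CPM in flowthrough for Hspa1a). The summed heat shock list was 4520 to 7082 CPM in astrocytes and 5405 to 6502 CPM in flowthrough, so these ranges overlapped.

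Markers of some other cell types were lower in astrocytes, as most members were, and those of others were not. Between the fractions, 24.4% of all genes were called lower in astrocytes and 24.8% higher. All 12 microglia markers were lower in astrocytes (median -3.55), with a summed level of 699 to 3314 against 12854 to 19969 CPM and none at 0 in any library. All 6 granulocyte markers were lower (median -5.90; 3.32 to 214 against 2410 to 8661 CPM), and Ly6g was at 0 in KO astrocytes 62 and WT astrocytes 57. Both falls were larger than the median of the members, -1.58. Of 6 ependymal and choroid plexus markers, the 3 known from the choroid plexus fell (Kl -2.98 ± 0.33, Ttr -2.58 ± 0.37 and Folr1 -2.37 ± 0.34), and the 3 of ciliated cells did not pass. Their summed level was 1890 to 9689 CPM in astrocytes against 19248 to 40138 CPM in flowthrough, without overlap. Of 5 border macrophage markers 2 fell, Ms4a7 and Mrc1 (summed level 21.0 to 158 against 102 to 137 CPM). Of 8 pericyte and smooth muscle markers 3 fell, Abcc9, Rgs5 and Kcnj8 (317 to 942 against 728 to 823 CPM). No marker of these 3 lists was at 0. Of 6 oligodendrocyte precursor markers 4 rose and none fell (205 to 323 against 65.3 to 144 CPM). The part of these cells in the members' result was not tested.

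**Figure D4:**
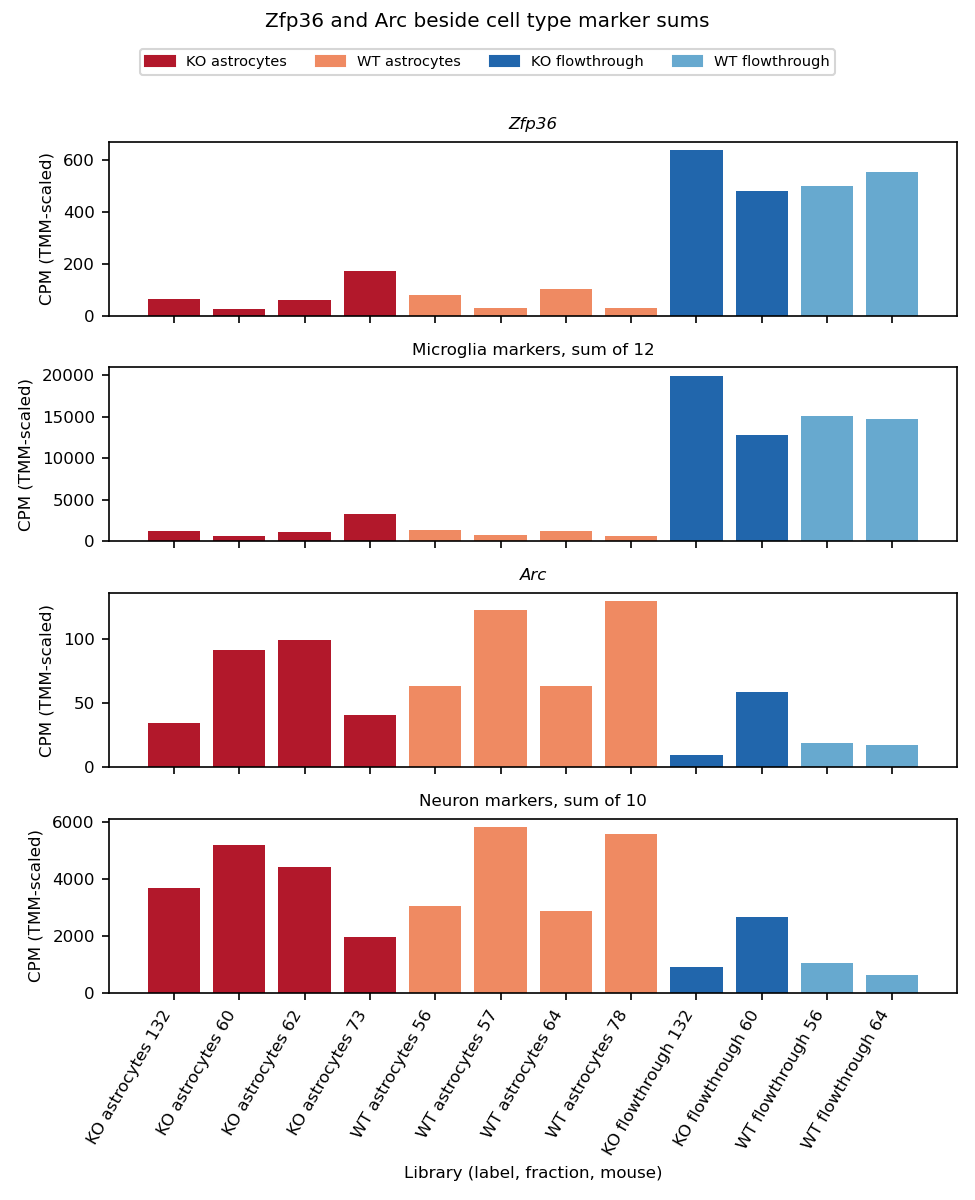
TMM-scaled CPM of Zfp36, the sum of 12 microglia markers, Arc and the sum of 10 neuron markers in each library, as bars from 0 with colours by group. Zfp36 and the microglia sum are highest in the 4 flowthrough libraries and, among astrocytes, in KO 73; Arc and the neuron sum are higher in most astrocyte libraries and, among flowthrough, in KO 60.

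Captured astrocytes of KO and WT mice were compared next, the contrast for which the study has 4 mice a label. No immediate early gene passed in it. Over all 18527 genes 0.232% passed the edgeR test (43 genes; 0.146% higher and 0.0864% lower), and 0 of 34 members did. At an unadjusted p under 0.05 there were 3 members, against 5.37% of all genes, and DESeq2 called no member. The median log2 fold change of the members was -0.10 with 16 of 34 above 0, and over all genes it was 0.0044. The KO and WT libraries were apart for no member, against 4.06% of all genes (1.89% higher and 2.16% lower).

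The 8 members with the smallest p had values as follows. Fosl2 had 7.82, 9.23, 7.61 and 8.56 CPM in KO astrocytes 132, 60, 62 and 73, against 9.08, 19.2, 11.2 and 15.5 CPM in WT astrocytes 56, 57, 64 and 78. WT 56 lay below KO 60, so the groups overlapped by a little, with a log2 fold change of -0.72 ± 0.23 (edgeR adjusted p = 0.569). Egr3 had 0.860, 0.969, 0.891 and 0.636 CPM in the same 4 KO libraries, against 1.03, 4.05, 0.775 and 4.59 CPM in the 4 WT libraries. WT 57 and WT 78 stood far above the rest, and WT 56 and WT 64 were close to the KO libraries (-1.63 ± 0.56, edgeR adjusted p = 0.681). Gadd45g had 24.5, 24.9, 29.7 and 32.3 CPM in KO, against 46.0, 31.4, 41.8 and 30.7 CPM in WT. The 2 groups overlapped between 30.7 and 32.3 CPM (-0.43 ± 0.17, edgeR adjusted p = 0.821).

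Nr4a3 averaged 1.99 ± 0.32 CPM in KO and 3.07 ± 1.2 CPM in WT (SD, n = 4 each; log2 fold change -0.62 ± 0.32, edgeR adjusted p = 0.971). Rhob was the 1 of the 8 with a positive estimate (0.60 ± 0.31, edgeR adjusted p = 0.971). It had 34.9, 31.5, 93.9 and 52.2 CPM in KO 132, 60, 62 and 73, against 32.6 to 38.4 CPM in WT, so that KO 62 and KO 73 alone were above the WT range. Fosb was -0.56 ± 0.30 (edgeR adjusted p = 0.972), with 3.49 to 3.78 CPM in 3 KO libraries and 8.001 CPM in KO 73, against 4.94 CPM in WT 56 and 7.42 to 7.77 CPM in the other 3 WT libraries. Gadd45b was -0.37 ± 0.23 and Egr1 -0.22 ± 0.14. In Egr1, KO averaged 24.5 ± 4.1 CPM and WT 28.5 ± 2.1 CPM (SD, n = 4 each).

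**Figure D5:**
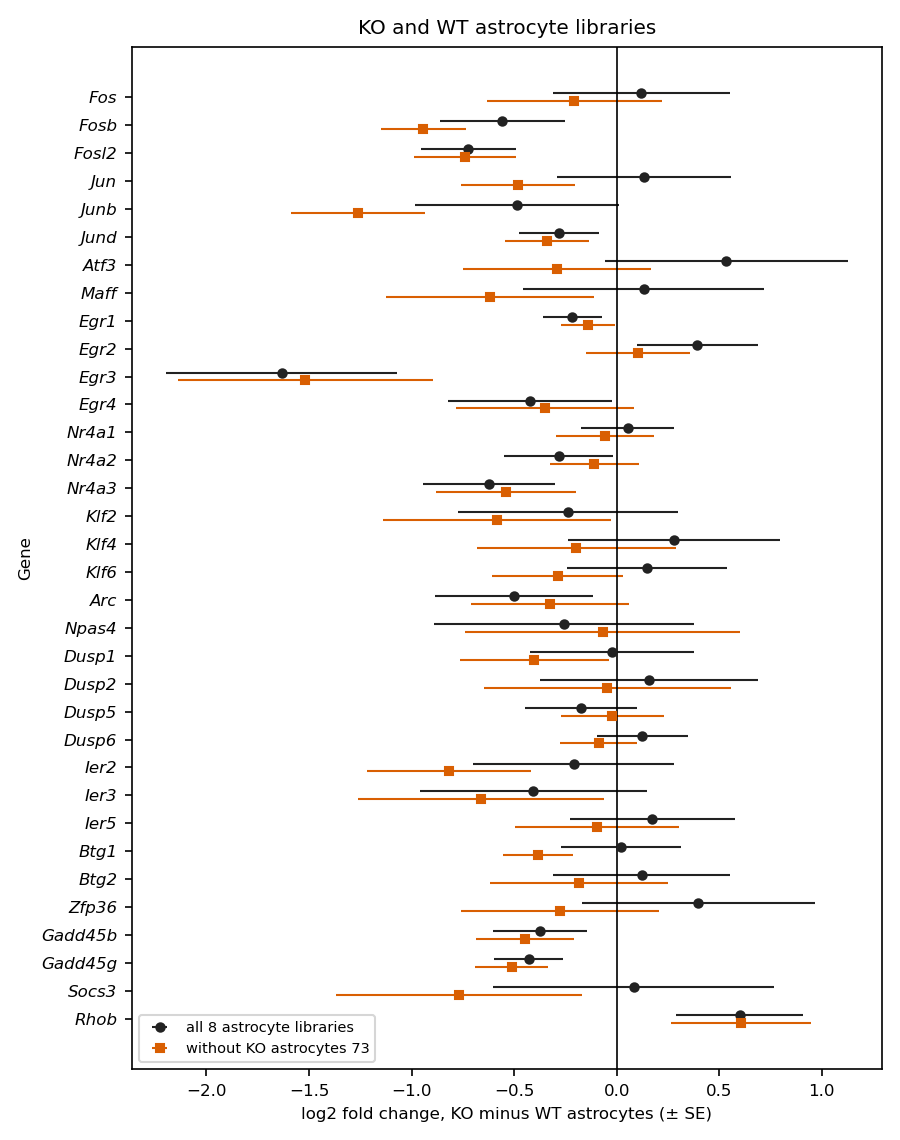
Log2 fold change, KO minus WT astrocytes, of each of the 34 genes with its standard error, from all 8 astrocyte libraries (black circles) and without KO astrocytes 73 (orange squares). Without that library most points move to the left, and 2 of 34 stay above 0.

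The highest astrocyte values sat in few libraries. KO astrocytes 73 had the highest level of 16 of the 34 members and was among the 2 highest for 22. WT astrocytes 64 was among the 2 highest for 17, and both together were the 2 highest for 16 members, such as Fos, Jun, Junb, Atf3, Zfp36 and Socs3. WT astrocytes 57 and 78 were the 2 highest for others, such as Arc, Egr1, Egr3, Egr4, Nr4a2, Nr4a3 and Dusp5. The spread was wide for some members: the highest astrocyte library exceeded the lowest 7.77-fold in Socs3, 7.45-fold in Atf3 and 6.15-fold in Zfp36. The summed microglia markers were highest of the astrocyte libraries in KO 73, with 3314 CPM, against 713 to 1268 CPM in the other KO and 699 to 1390 CPM in the WT libraries. The ependymal and choroid plexus sum was highest there too, with 9689 CPM against 1890 to 6131 CPM in the other astrocyte libraries, and so was the border macrophage sum, with 158 CPM against 21.0 to 58.5 CPM. The astrocyte sum was lowest there, with 7842 CPM against 10884 to 13636 CPM. The summed neuron markers were lowest there as well, with 1972 CPM, and highest in WT 57 and WT 78, with 5820 and 5564 CPM. In WT 64 the endothelial sum was the highest of the astrocyte libraries, with 876 CPM. The part of these cells in the spread was not tested.

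Without KO 73 the members' median was -0.33, with 2 of 34 above 0, and without both KO 73 and WT 78 it was -0.44, with 5 above 0. Without WT 64 it was 0.20, with 19 above 0, and without KO 132, 60 or 62 it was 0.05, 0.02 and 0.02. The direction of the members' median between the labels therefore depended on which library was left out, while no member passed in any of these refits (smallest edgeR adjusted p among them 0.134, Junb without KO 73 and WT 78, -1.42 ± 0.30). With KO 73 left out, Fosb was -0.94 ± 0.21 (edgeR adjusted p = 0.164) and Junb -1.26 ± 0.33 (edgeR adjusted p = 0.29). Of the stress lists, 14 of 16 heat shock genes had an estimate above 0 in KO against WT astrocytes (median 0.19) and none passed. Their summed level was 7082 CPM in KO 73, against 4776 to 5158 CPM in the other KO and 4520 to 5013 CPM in the WT libraries. All 12 microglia markers were above 0 as well (median 0.55). So were all 10 oligodendrocyte (0.78), all 5 border macrophage (0.79) and all 6 ependymal and choroid plexus markers (0.25). Of 12 astrocyte markers 1 was above 0 (median -0.23), and of 10 neuron markers 4 were (-0.10). None of these markers passed.

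In flowthrough, KO and WT differed in 0.00476% of all 20997 genes by the edgeR test (1 gene), and in no member. No member had an unadjusted p under 0.05, against 4.63% of all genes, and DESeq2 called 22 genes, none of them members. The members' median was -0.0021, with 17 of 34 above 0. With 2 libraries a group, 5 members did not overlap, Jun and Jund higher and Nr4a3, Dusp2 and Gadd45g lower in KO, against 33.6% of all genes (17.1% higher and 16.5% lower). The 5 with the smallest p were Egr4 (1.35 ± 0.71), Gadd45g (-0.43 ± 0.24), Nr4a1 (-0.66 ± 0.37), Arc (0.94 ± 0.73) and Dusp2 (-0.68 ± 0.58), each with an edgeR adjusted p of 1. Nr4a1 had 90.5 and 58.9 CPM in KO flowthrough 132 and 60, against 82.6 and 154 CPM in WT flowthrough 56 and 64. Its groups overlapped, with WT 64 far above the rest. The sign of the Arc estimate rested on KO flowthrough 60, and without it the value was -0.92.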

How the data were processed

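RNA-seq libraries of 8 mice were analysed. The deposited counts are raw reads per gene, the deposited CPM is the count divided by the library total and scaled to 1e+06 (within 5.1e-11), and the deposited RPKM is that CPM per kilobase of summed exon length, as tested on the values. Per the submitters' processing notes, GRCm38, featureCounts 1.4.6-p5, Subread, STAR 2.5.1a and bcl2fastq were used. Tool roles, strand setting and annotation are not stated there.

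The test was that of edgeR 4.0.16 under R 4.3.3 (quasi-likelihood, two-sided, TMM factors, filterByExpr, Benjamini-Hochberg over all genes, threshold 0.05). The fit of 12 libraries had 20997 genes and 8 residual degrees of freedom. The KO and WT astrocyte comparison used the 8 astrocyte libraries (18527 genes, 6 degrees). CPM of single genes in the text is TMM-scaled in the fit of its comparison, and summed lists in the fit of 12 libraries throughout. limma 3.58.1 (voom), DESeq2 1.42.0, other scalings and filters, and leaving out libraries were alternatives. The steps were tested on simulated data.

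The mouse number in the titles pairs an astrocyte with a flowthrough library in 4 mice, because both come from 1 animal. Deviations of the pairs from the group means correlated at -0.0066 (mouse 132), 0.155 (56), 0.352 (60) and 0.251 (64). Each mouse gave 1 library a fraction, so the spread is between mice. A count of 3, taken as the floor, is 0.0582 to 0.0775 CPM, which covers counting error only.

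The members and all gene lists were chosen with earlier results of these data known. All members were named in the comparison of the fractions. The 8, 5 and 4 members with the smallest p were named for KO against WT astrocytes, KO against WT flowthrough and the interaction, with up to 4 genes of each pathway list. Promoters are RefSeq's.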

Additional observations from a re-analysis of the deposited data

Results flagged for a closer look

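Within a group of 4 astrocyte libraries, 7 values of 68 groups tested stood apart from the other 3 libraries by Dixon's test at the 95% level, where chance gives about 1 group in 20. In KO astrocytes 73 there were 3 of them: Fosb at 8.001 CPM (3.49 to 3.78 in the other KO libraries), Junb at 7.46 CPM (1.76 to 2.17) and Atf3 at 25.3 CPM (4.36 to 7.62). In WT astrocytes 64 there were 2, Klf2 at 14.9 CPM (2.94 to 4.38 in the other WT libraries) and Ier3 at 58.5 CPM (9.32 to 15.5). The others were low: Fosb at 4.94 CPM in WT 56 (7.42 to 7.77) and Jund at 6.51 CPM in KO 62 (9.61 to 9.97). The members were measured in the same libraries, so the 68 groups are not independent, and the count of 7 is not a test. The rule was applied to CPM and not to its logarithm.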

How the results depend on the processing

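Of the 28 members called between the fractions, 17, all lower in astrocytes, were called under each of the 24 alternatives. Scaling by library size alone moved the median of all genes to -0.14 (log2) and the share of calls that were higher to 42.8%, against 50.4%. It kept 24 members lower and 4 higher, against 5660 genes lower and 4239 higher of all 20997. With KO libraries only, 4893 genes passed between the fractions, against 10333, and no member was higher. With WT libraries only 2 were higher, and leaving out 1 library gave 2 to 5, against 4. With the mouse as replicate block in the 8 paired libraries, 25 members were lower and 4 higher, and apart from Maff no member's call changed. Of the 20595 genes tested there, 5722 were lower and 5035 higher. For KO against WT astrocytes, 28 genes passed under library size (75% higher) and 183 with DESeq2 (48.6% higher), against 43 (62.8% higher), and 12 to 37 with 1 library left out. The members' median was -0.44 without KO 73 and WT 78, and -0.33 to 0.20 with 1 library left out. For KO against WT flowthrough, 22 genes passed with DESeq2, 0 with voom, 0 with the 4 flowthrough libraries alone and 0 to 5 with 1 library left out, against 1. For the interaction, DESeq2 called 8 genes. The members' interaction median, -0.09, was -0.55 without KO 73 and WT 78, -0.73 in the 8 paired libraries without a block, -0.68 with the replicate block (17 of 34 members at an unadjusted p under 0.05, against 7.73% of all genes, and none called) and -0.371 to 0.0843 with 1 library left out. Directions turned for Jund between the fractions with WT libraries only (0.18), for Gadd45g under library size (-0.0487) and with 1 library left out (-0.0160 to 0.187, lowest without WT flowthrough 56), and for Arc in KO against WT flowthrough with 1 library left out (-0.915 to 1.72, the lowest without KO flowthrough 60). The cause was not tested. Flowthrough holds 2 mice a label, so small differences between labels there could not be detected.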
